A study of Mus musculus with 30 samples.

Results

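The cells described here are spleen cells with RNA for Cd209a, taken as a subset of the type 2 conventional dendritic cells (cDC2). They were chosen by measured values, from the raw counts of unique molecular identifiers (UMIs, 1 per captured RNA molecule) in each cell. A cell was kept if it had at least 200 detected genes and at most 10% of its UMIs on mitochondrial genes. It was then chosen if it had at least 2 Cd209a UMIs, at least 3 UMIs of H2-Ab1 and Cst3 together, 0 of Xcr1 and Clec9a, at most 2 of Siglech, at most 1 of Fscn1 and Ccr7, at most 2 of the B cell genes Cd79a, Cd79b and Ms4a1 and at most 1 of the T cell genes Cd3e, Cd3d and Cd3g. This gave 130 cells of 46886 kept cells, with 28 and 70 in Smc3-cKO replicates 1 and 2 and 9 and 23 in Smc3-WT replicates 1 and 2.

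The study profiled splenocytes of Smc3-cKO and Smc3-WT mice, with red blood cells depleted, on the Chromium 3′ platform in 2 libraries per genotype. The other 26 samples of the series were not analysed here. The title of the series names cohesin and the transcription factor PU.1 in the differentiation of conventional dendritic cells, and the comparison made here is between the 2 genotypes within the chosen cells. The labels used here do not give the Cre driver, the deleted part of Smc3, the age of these mice or whether each library is a different animal, so the p-values measure the spread between libraries. Values are given per library throughout, replicate 1 before replicate 2.

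Conventional dendritic cells take up antigen, load peptides onto MHC molecules and prime T cells. The cDC1 subset carries Xcr1 and Clec9a and is known for cross-presentation to CD8 T cells, and the cDC2 subset carries Sirpa and is known for priming CD4 T cells. In mouse spleen, cDC2 are commonly divided into Esam-high cells, which depend on Notch2, and Esam-low cells with more myeloid gene expression. Cd209a is a mouse homologue of the human lectin DC-SIGN, and Clec10a is a galactose-binding lectin of the same family. Cohesin, to which Smc3 contributes a subunit, is a ring that keeps sister chromatids together and extrudes loops of chromatin.

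Promoters are shown for the gene that defines the cells and for the pair of genes that passed the genotype test below. Each runs from 250 bases before to 50 bases after an annotated start, 300 bases in all, 5′ to 3′ on the gene's own strand (RefSeq, GRCm38.p6). Bases are in lower case with each CG dinucleotide in capitals. The Dscam and Ccser1 windows lie wholly inside the gene spans given below, so the start used is not the outer end of the span. CG reads the same on both strands, and 94.6% of 32851 promoters of this length hold at least 1, with a median of 7. The Cd209a promoter (chr8:3748935-3749234, minus strand) holds 1 CG and is 44.0% G and C. The Dscam promoter (chr16:97170686-97170985, minus strand) holds 26, a number reached by 16.9% of promoters, and is 70.0% G and C. The Ccser1 promoter (chr6:61180075-61180374, plus strand) holds 46, a number reached by 1.65% of promoters, and is 75.7% G and C.
Cd209a: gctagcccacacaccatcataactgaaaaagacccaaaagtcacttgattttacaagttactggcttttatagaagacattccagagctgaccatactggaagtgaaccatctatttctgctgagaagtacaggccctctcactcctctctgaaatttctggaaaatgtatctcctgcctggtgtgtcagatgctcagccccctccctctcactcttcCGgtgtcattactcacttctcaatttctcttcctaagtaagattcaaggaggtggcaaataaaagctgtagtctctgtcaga
Dscam: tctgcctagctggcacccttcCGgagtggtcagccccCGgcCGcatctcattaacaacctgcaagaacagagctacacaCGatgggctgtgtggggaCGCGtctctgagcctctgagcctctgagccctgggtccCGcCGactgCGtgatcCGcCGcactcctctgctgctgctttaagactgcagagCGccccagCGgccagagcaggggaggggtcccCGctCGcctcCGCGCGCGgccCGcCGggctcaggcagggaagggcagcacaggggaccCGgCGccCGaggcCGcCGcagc
Ccser1: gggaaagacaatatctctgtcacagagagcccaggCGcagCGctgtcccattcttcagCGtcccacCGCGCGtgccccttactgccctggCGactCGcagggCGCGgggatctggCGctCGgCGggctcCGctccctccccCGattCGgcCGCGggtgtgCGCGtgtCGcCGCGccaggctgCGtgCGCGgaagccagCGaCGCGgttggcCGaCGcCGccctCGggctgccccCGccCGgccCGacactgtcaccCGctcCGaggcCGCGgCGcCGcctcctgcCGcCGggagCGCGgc

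The libraries held 40367056 to 51299056 UMIs over 9074 to 16096 barcodes, and the chosen cells summed to 175581 and 399706 UMIs in Smc3-cKO and to 42952 and 117259 in Smc3-WT. Their median depth was 6412.5 and 5432 UMIs per cell in Smc3-cKO and 4035 and 5113 in Smc3-WT, and their median mitochondrial share 4.28% and 2.39% against 5.21% and 2.23%. In the summed cells 1 UMI was worth 5.83 and 2.48 scaled CPM in Smc3-cKO and 21.4 and 9.14 in Smc3-WT. Pairs of libraries shared 36 to 61 cell barcodes, and none of the shared ones was a chosen cell. Scrublet called 0 and 2 of the chosen cells doublets in Smc3-cKO and 0 and 1 in Smc3-WT. Smc3 itself was at 122 and 94.3 TMM-scaled CPM (UMIs scaled to a common library total) in the Smc3-cKO cells and at 85.5 and 36.6 CPM in the Smc3-WT cells, from 59 and 8 UMIs in all. The Smc3-cKO libraries were thus the higher ones, with a log2 difference of 0.999 (SE 0.58, edgeR quasi-likelihood test, adjusted p = 0.891). Counts at the 3′ end can come from a transcript that lacks an upstream part, and where the deleted part lies is not given, so this is no check of the genotype labels.

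The label was checked against its markers. Flt3, the receptor for the growth factor that sustains dendritic cells, was detected in 25 of 28 and 54 of 70 of the Smc3-cKO cells and in 8 of 9 and 17 of 23 of the Smc3-WT cells. Clec10a was detected in 5 and 39 of the Smc3-cKO cells and in 2 and 3 of the Smc3-WT cells, and Cyp7b1, an oxysterol 7-alpha-hydroxylase, in 5 and 11 of the Smc3-cKO cells and in 0 and 0 of the Smc3-WT cells. Flt3 thus marked most of the cells in every library, while Clec10a marked the majority in 1 library and Cyp7b1 a minority in 2. Among further cDC genes, Sirpa was found in 23 and 55 of the Smc3-cKO cells and in 7 and 18 of the Smc3-WT cells, and the cDC transcription factor Zbtb46 in 14 and 45 against 5 and 10. As described below, 32 Smc3-cKO cells and 5 Smc3-WT cells carried monocyte genes beside Flt3 and Sirpa, with little Zbtb46, so the cells are called Cd209a cells from here on and not taken as 1 cell type. The rule itself put Xcr1 and Clec9a at 0.

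Cd209a cells were more frequent in the Smc3-cKO libraries. They made up 0.392% (95% exact binomial interval 0.261 to 0.566) and 0.516% (0.402 to 0.651) of kept cells in Smc3-cKO, against 0.0736% (0.0337 to 0.140) and 0.165% (0.105 to 0.247) in Smc3-WT. The intervals of the genotypes did not overlap, and they cover counting error only. The mean share was 0.454% ± 0.0873 in Smc3-cKO and 0.119% ± 0.0646 in Smc3-WT (SD, n = 2 each), a 3.81-fold ratio, and the exact two-sided permutation p was 0.333, the smallest that 2 libraries against 2 can give. A share is relative, so fewer cells of other types and more Cd209a cells cannot be told apart.

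The size of this ratio depended on how the cells were drawn. Kept cells with at least 2 Cd209a UMIs and no other limit numbered 307, at 0.826% and 1.16% of kept cells in Smc3-cKO and 0.131% and 0.538% in Smc3-WT, a 2.97-fold ratio of means. Those with at least 1 UMI were 1.40% and 1.62% in Smc3-cKO and 0.597% and 1.01% in Smc3-WT, a 1.88-fold ratio. Of the cells with at least 2 Cd209a UMIs, 47.5% and 44.6% met the whole rule in Smc3-cKO and 56.2% and 30.7% in Smc3-WT. A UMI of Xcr1 or Clec9a was the most frequent reason to leave a cell out, in 26 and 60 cells of Smc3-cKO and 5 and 32 of Smc3-WT. As a background level of free Cd209a RNA, 0.291% and 0.362% of B cell-gated cells had a Cd209a UMI in Smc3-cKO and 0.303% and 0.0649% in Smc3-WT, at median depths of 4274.5 and 2716.5 UMIs and of 2858.5 and 2811 UMIs. All but 1 of those B cells had a single Cd209a UMI.

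**Figure D1:**
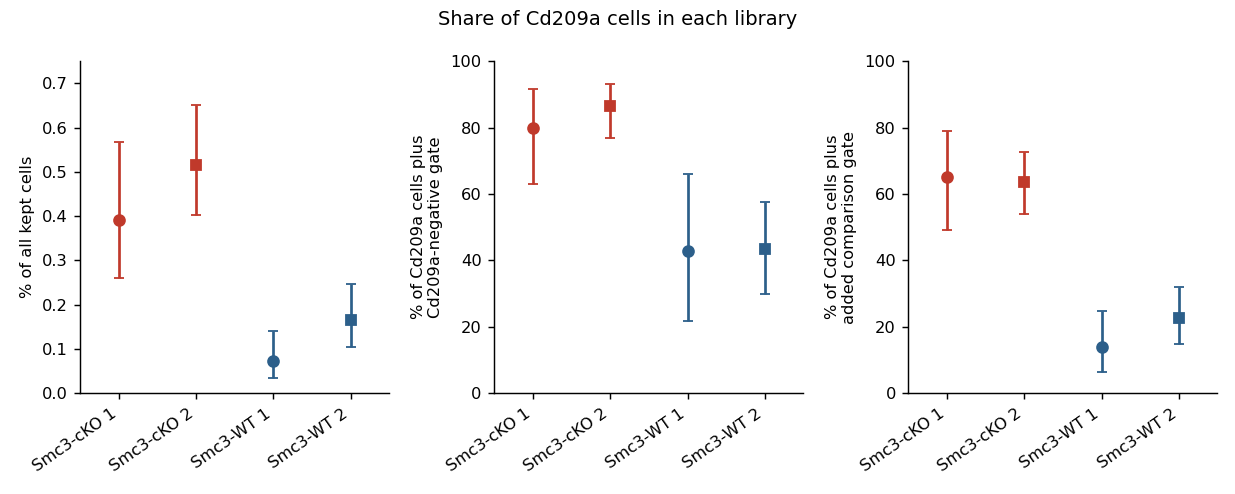
Percentage of Cd209a cells in each library (y axis) among all kept cells (left), among Cd209a cells plus the Cd209a-negative gate (middle) and among Cd209a cells plus the added comparison gate (right). Points are libraries, bars are 95% exact binomial intervals, and both Smc3-cKO libraries lie above both Smc3-WT libraries in each panel (0.392% and 0.516% against 0.0736% and 0.165% on the left).

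Against Cd209a-negative cells gated by cDC genes in the same libraries the shift was in the same direction. A Cd209a-negative gate with the same exclusions (0 Cd209a UMIs, at least 3 of Cst3 and of H2-Ab1, 1 or more of Zbtb46, Flt3 and Itgax together, and limits on monocyte and macrophage genes) held 7 and 11 cells in Smc3-cKO and 12 and 30 in Smc3-WT. Cd209a cells were 80.0% and 86.4% of both together in Smc3-cKO and 42.9% and 43.4% in Smc3-WT. A wider gate that was added after seeing the data, with 15 and 40 cells in Smc3-cKO and 56 and 79 in Smc3-WT, gave 65.1% and 63.6% against 13.8% and 22.5%. Means were 64.4% ± 1.05 in Smc3-cKO and 18.2% ± 6.15 in Smc3-WT (SD, n = 2 each, exact permutation p = 0.333). Cd209a UMIs both define the cells and set these shares, so they describe the rule's own measure. The shares are not fractions of cDC2. As described below, some Cd209a cells carried monocyte genes, which the rule does not limit, and the comparison gates also held erythroid RNA.

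Within the chosen cells, those of Smc3-cKO carried more Cd209a UMIs. The median was 5 and 5 UMIs per cell in Smc3-cKO and 2 and 2 in Smc3-WT, and the highest cell had 22 and 21 UMIs against 4 and 14. Just inside the threshold, 4 and 10 cells of Smc3-cKO and 5 and 12 of Smc3-WT had exactly 2 UMIs, and just outside it 6 and 12 against 12 and 18 cells met every other limit with 1 UMI. Most Smc3-WT cells thus lay next to the threshold. Over the summed cells, Cd209a (ENSMUSG00000031494, chr8:3743395-3748984) was at 1084 and 1087 CPM in Smc3-cKO and 513 and 704 CPM in Smc3-WT, which is given without a test because the rule used it. Cd209a lies in a cluster of close homologues, so reads that these share make its count uncertain. Of those, Cd209d was at 134 and 32.3 CPM in Smc3-cKO and 21.4 and 45.7 CPM in Smc3-WT, and Cd209c at 34.98 and 44.7 CPM against 214 and 9.14 CPM.

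**Figure D2:**
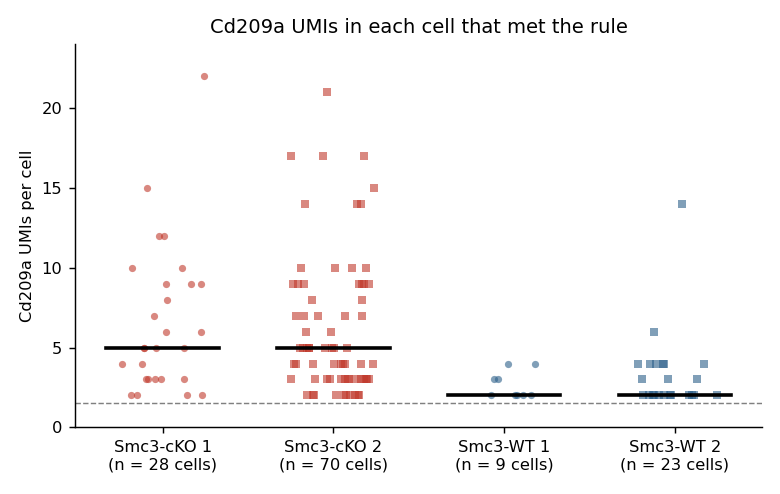
Cd209a UMIs (y axis) in each of the 130 cells that met the rule, by library (x axis), with the library median as a black bar and the rule's minimum just above the dashed line. The median is 5 in both Smc3-cKO libraries and 2 in both Smc3-WT libraries.

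Summed per library and compared between genotypes, 2 genes of 3345 tested passed edgeR's quasi-likelihood test at a Benjamini-Hochberg adjusted p of 0.05, and both fell in Smc3-cKO. That is 0.0598% of the genes tested. The count was 15 without Smc3-cKO replicate 1, 0 without Smc3-cKO replicate 2, 39 without Smc3-WT replicate 1 and 284 without Smc3-WT replicate 2, and 9 by DESeq2. At an unadjusted p under 0.05 there were 193 genes (5.77%), 83 higher and 110 lower in Smc3-cKO, which is 2.48% and 3.29% of those tested. Both Smc3-cKO libraries lay above both Smc3-WT libraries for 19.0% of tested genes and below both for 19.3%, and the median log2 difference over all genes tested was 0.01.

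The first called gene was Dscam, a neuronal cell adhesion molecule of the immunoglobulin superfamily (ENSMUSG00000050272, chr16:96587452-97171113). It was at 17.5 and 12.4 CPM in Smc3-cKO and at 406 and 558 CPM in Smc3-WT, and 1 of 28 and 2 of 70 cells had a UMI in Smc3-cKO against 3 of 9 and 10 of 23 in Smc3-WT. It was low in both Smc3-cKO libraries, with no overlap, and fell by 5.05 on the log2 scale (SE 0.50, edgeR adjusted p = 0.0110). The second was Ccser1, a coiled-coil serine-rich protein gene (ENSMUSG00000039578, chr6:61179960-62382863), at 0 and 2.48 CPM in Smc3-cKO and 128 and 302 CPM in Smc3-WT. Smc3-cKO held a single Ccser1 UMI against 39 in Smc3-WT, a pooled ratio of 0.00697 with a counting interval of 0.000172 to 0.0412 (edgeR adjusted p = 0.0318). That interval takes UMIs as independent and leaves out the spread between cells and libraries. Dscam and Ccser1 passed the filter on low counts only through the Smc3-WT libraries, where they were high. Both calls were lost without Smc3-cKO replicate 2, with adjusted p of 0.189 for Dscam and 0.173 for Ccser1, and without the cells that carried monocyte genes, with 0.050009 and 0.0939. The log2 differences stayed large there, at -4.68 and -4.64 for Dscam and -7.62 and -6.25 for Ccser1. Dscam was also lost with equal numbers of cells per library (0.139) and Ccser1 among cells with no B or T cell gene (0.0661).

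The other 6 genes on the lower side, named by a rule that takes the smallest unadjusted p among genes whose libraries did not overlap, did not pass the test. Adam23, a transmembrane protein of the disintegrin family, was at 70.0 and 102 CPM in Smc3-cKO and 599 and 1115 CPM in Smc3-WT (log2 difference -3.30, SE 0.48, edgeR adjusted p = 0.0551). Arhgap6, a GTPase-activating protein, was at 81.6 and 109 CPM in Smc3-cKO and 620 and 859 CPM in Smc3-WT (log2 difference -2.94, SE 0.41, edgeR adjusted p = 0.0551). Frmd5, a FERM domain protein, was at 0 and 34.7 CPM in Smc3-cKO and 299 and 649 CPM in Smc3-WT. Adam23 had UMIs in 2 of 28 and 4 of 70 Smc3-cKO cells and in 3 of 9 and 12 of 23 Smc3-WT cells. Arhgap6 was more widespread, with UMIs in 6 and 23 of the Smc3-cKO cells and in 7 and 16 of the Smc3-WT cells.

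The non-coding gene 9530059O14Rik was at 0 and 9.93 CPM in Smc3-cKO and 107 and 366 CPM in Smc3-WT. Cacna1e, a voltage-gated calcium channel subunit, had 1 UMI in all Smc3-cKO cells and 21 in Smc3-WT cells, a pooled ratio of 0.0129 with a counting interval of 0.000313 to 0.0805. This interval too takes UMIs as independent. Bbs9, a subunit of the ciliary BBSome complex, was at 64.1 and 84.4 CPM in Smc3-cKO and 321 and 411 CPM in Smc3-WT (log2 difference -2.28, SE 0.41, edgeR adjusted p = 0.122). All 6 kept the lower side in Smc3-cKO under every alternative in which they were tested, though not the size or the side of the threshold. Adam23 was at -1.03 with equal numbers of cells (edgeR adjusted p = 0.769), and by DESeq2 it passed, at -3.32 (adjusted p = 0.00349). By DESeq2 Arhgap6 (0.00911), 9530059O14Rik (0.00462), Frmd5 (0.00189) and Cacna1e (0.0272) passed too. Of these, 9530059O14Rik, Frmd5 and Cacna1e passed the filter on low counts only through the Smc3-WT libraries, where they were high.

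On the higher side no gene passed the test as designed, and 6 of those the same rule picks are described. Cyp7b1 was at 402 and 248 CPM in Smc3-cKO and at 0 and 0 CPM in Smc3-WT (edgeR adjusted p = 0.0551). A floor of 3 UMIs over both Smc3-WT libraries takes UMIs as independent, so it gives no lower bound when few cells hold many UMIs. Against that floor Cyp7b1 was 15.3-fold higher in Smc3-cKO. It passed in 12 of 17 alternatives, with an adjusted p of 0.00911 by DESeq2. Its 169 UMIs came from 5 and 11 Smc3-cKO cells, with up to 41 in 1 cell. Cyp7b1 passed the filter on low counts only through the Smc3-cKO libraries, where it was high. The 0 in Smc3-WT depended on the rule. Cells that met every limit but that on Xcr1 and Clec9a, 11 and 27 in Smc3-cKO and 3 and 10 in Smc3-WT, held 258 and 629 unscaled CPM of Cyp7b1 in Smc3-cKO and 74.9 and 1579 in Smc3-WT. Clec9a was detected in all of these cells and Xcr1 in 1 of them. Without the limit on Xcr1 and Clec9a, an alternative added after seeing the data, the log2 difference of Cyp7b1 was 0.14 (SE 0.79, edgeR adjusted p = 0.9999). One Smc3-WT cell with 98 UMIs held most of the Cyp7b1 among all Smc3-WT cells with at least 2 Cd209a UMIs.

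Plcb4 and Plcb1 encode phospholipase C beta isoforms that signal below G protein-coupled receptors. Plcb4 was at 222 and 320 CPM in Smc3-cKO and 21.4 and 36.6 CPM in Smc3-WT (log2 difference 3.09, SE 0.57, edgeR adjusted p = 0.122), with UMIs in 15 of 28 and 38 of 70 Smc3-cKO cells and 1 of 9 and 3 of 23 Smc3-WT cells. Plcb1 was at 461 and 320 CPM in Smc3-cKO and 0 and 91.4 CPM in Smc3-WT (log2 difference 2.68, SE 0.68, edgeR adjusted p = 0.504). Plcb1 had UMIs in 16 and 29 of the Smc3-cKO cells and in 0 and 2 of the Smc3-WT cells. The genotypes did not overlap in either gene. Plcb4 passed the filter on low counts only through the Smc3-cKO libraries, where it was high. All 10 Plcb1 UMIs of Smc3-WT lay in replicate 2 and in the cells with monocyte genes described below, and classical monocyte-gated cells held 2194 and 2412 unscaled CPM of Plcb1 in Smc3-cKO and 2254 and 548 in Smc3-WT. Without Smc3-WT replicate 2 no Smc3-WT UMI of Plcb1 was left, and Smc3-WT rested on 1 library.

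Wfdc17, a small secreted whey acidic protein domain gene, was at 496 and 375 CPM in Smc3-cKO and 42.8 and 128 CPM in Smc3-WT. Fxyd5, a regulator of the sodium pump, was at 536 and 387 CPM in Smc3-cKO and 128 and 183 CPM in Smc3-WT. Cct8, a subunit of the cytosolic chaperonin, was at 134 and 149 CPM in Smc3-cKO and 21.4 and 45.7 CPM in Smc3-WT. The edgeR adjusted p was 0.332 for Wfdc17 and 0.771 for Fxyd5 and Cct8. Cct8 passed the filter on low counts only through the Smc3-cKO libraries.

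**Figure D3:**
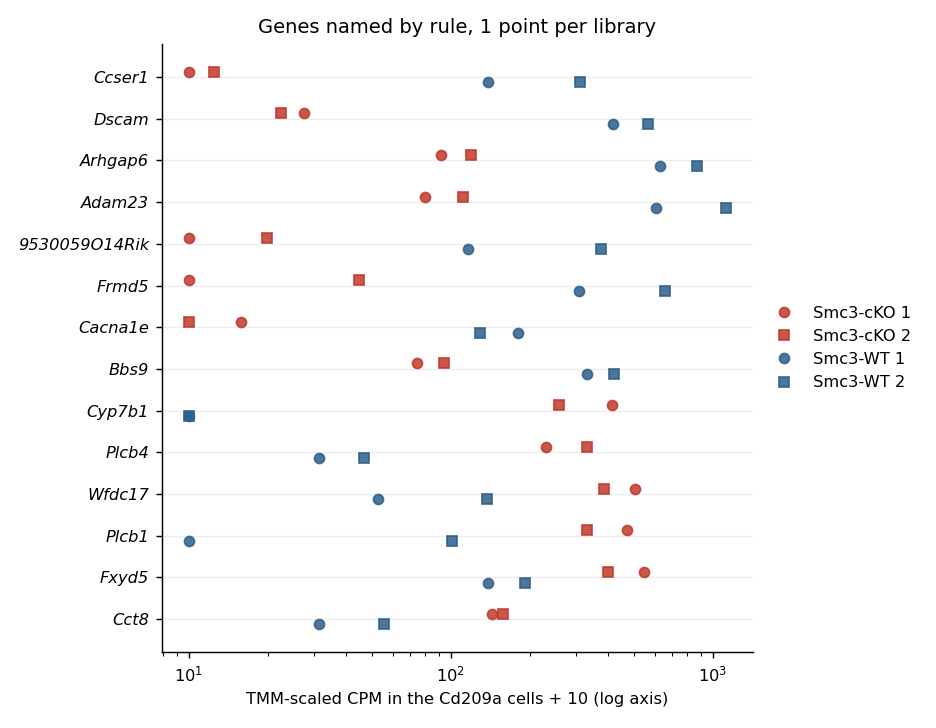
TMM-scaled CPM plus 10 in the Cd209a cells (x axis, log scale) for 14 genes named by rule (y axis), with 1 point per library. The upper 8 genes have both Smc3-cKO libraries below both Smc3-WT libraries (Dscam at 17.5 and 12.4 against 406 and 558 CPM), and the lower 6 have both above (Plcb4 at 222 and 320 against 21.4 and 36.6 CPM).

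Gene lists are described next by their roles. In each list, tested genes are those that passed the filter on low counts, and values are given without a verb of change because no further list member passed the test. A gene could pass that filter through 1 genotype alone, and Ffar2, Adam22, Ccl5 and Ifi204 did so. The counts in each list stand beside the shares over all 3345 genes tested. Of those, 19.0% had both Smc3-cKO libraries above and 19.3% both below. At an unadjusted p under 0.05, 2.48% were higher and 3.29% lower. Of 9 genes linked to Cd209a cDC2, 7 were tested, with 4 whose Smc3-cKO libraries both lay above, 3 at an unadjusted p under 0.05 and a median log2 difference of 1.64. Cx3cr1, the fractalkine receptor, was at 280 and 266 CPM in Smc3-cKO and 0 and 110 CPM in Smc3-WT (log2 difference 1.93, SE 0.68, edgeR adjusted p = 0.771). Clec10a was at 58.3 and 285 CPM in Smc3-cKO and 64.2 and 45.7 CPM in Smc3-WT, so the genotypes overlapped (log2 difference 1.81, SE 0.83, edgeR adjusted p = 0.852). Flt3 was at 513 and 355 CPM in Smc3-cKO and 428 and 485 CPM in Smc3-WT, again with overlap. Mgl2, a lectin close to Clec10a, was not tested, and 25 of its 26 UMIs in Smc3-WT replicate 1 came from 1 cell.

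Of 10 genes of the Esam-high subset and its Notch pathway, 2 were tested. Adgre1, which encodes F4/80, was at 111 and 69.5 CPM in Smc3-cKO and 235 and 329 CPM in Smc3-WT (log2 difference -1.73, SE 0.44, edgeR adjusted p = 0.504). Clec4a4, the lectin DCIR2 that marks these cells, was too low to test, with 1 and 6 UMIs in Smc3-cKO and 0 and 15 in Smc3-WT, and Cd4 had 0 and 2 against 3 and 8 UMIs. Notch2 was at 373 and 419 CPM in Smc3-cKO and 385 and 238 CPM in Smc3-WT.

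Of 19 genes shared by cDC, 18 were tested, with 2 whose Smc3-cKO libraries both lay above and 8 below, 5 lower at an unadjusted p under 0.05 and a median log2 difference of -0.18. The largest differences were in Ffar2, a receptor for short-chain fatty acids, at 34.98 and 22.3 CPM in Smc3-cKO and 150 and 137 CPM in Smc3-WT (log2 difference -2.38, SE 0.55, edgeR adjusted p = 0.332). Asb2, a ubiquitin ligase subunit, was at 64.1 and 34.7 CPM in Smc3-cKO and 235 and 201 CPM in Smc3-WT (log2 difference -2.21, SE 0.48, edgeR adjusted p = 0.255). Gpr132, a receptor for oxidised lipids, was at 64.1 and 81.9 CPM in Smc3-cKO and 278 and 165 CPM in Smc3-WT (log2 difference -1.47, SE 0.45, edgeR adjusted p = 0.771). In these 3 genes the genotypes did not overlap, while Zbtb46 was at 198 and 266 CPM in Smc3-cKO and 278 and 192 CPM in Smc3-WT, with overlap.

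Of 46 transcription factors of dendritic cells, 32 were tested, with a median log2 difference of 0.04, 7 whose Smc3-cKO libraries both lay above and 4 below, and 3 higher at an unadjusted p under 0.05. Over all genes tested, 19.0% lay above and 19.3% below. Tcf4, the master regulator of plasmacytoid dendritic cells (pDC), was at 828 and 827 CPM in Smc3-cKO and 235 and 393 CPM in Smc3-WT (log2 difference 1.35, SE 0.46, edgeR adjusted p = 0.771). Irf8, needed for cDC1 and pDC, was at 87.4 and 159 CPM in Smc3-cKO and 42.8 and 36.6 CPM in Smc3-WT (log2 difference 1.72, SE 0.62, edgeR adjusted p = 0.771). Both differences took the opposite sign without the limit on Siglech, at -0.35 for Tcf4 and -1.16 for Irf8. Stat5a was at 87.4 and 104 CPM in Smc3-cKO and 21.4 and 27.4 CPM in Smc3-WT. Spi1, which encodes PU.1, was at 577 and 427 CPM in Smc3-cKO and 299 and 494 CPM in Smc3-WT, and Irf4, a factor of cDC2, at 70.0 and 64.5 against 128 and 64.0 CPM, both with overlap.

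Of 16 cohesin and loop regulators, 13 were tested and 0 had an unadjusted p under 0.05, with a median log2 difference of -0.03. Stag1, a cohesin subunit, was at 484 and 653 CPM in Smc3-cKO and 321 and 430 CPM in Smc3-WT. Nipbl, which loads cohesin onto DNA, was at 542 and 586 CPM in Smc3-cKO and 577 and 512 CPM in Smc3-WT.

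Of 27 genes of pDC and of transitional dendritic cells, which share features of pDC and cDC2, 12 were tested, with 7 whose Smc3-cKO libraries both lay above and 0 below, 4 higher at an unadjusted p under 0.05 and a median log2 difference of 1.17. The list added up to 7057 and 6482 unscaled CPM in Smc3-cKO and 3050 and 4017 CPM in Smc3-WT. Ly6c2, which also marks classical monocytes, was at 641 and 76.9 CPM in Smc3-cKO and 0 and 36.6 CPM in Smc3-WT (log2 difference 3.76, SE 1.25, edgeR adjusted p = 0.771). Of its 141 Smc3-cKO UMIs, 120 lay in the 32 cells with monocyte genes described below, and without the limit on Siglech its log2 difference was 1.08. All 4 Smc3-WT UMIs of Ly6c2 lay in replicate 2, so none was left without that library. The pDC marker Siglech, which the rule limits, was at 11.7 and 19.9 CPM in Smc3-cKO and 0 and 18.3 CPM in Smc3-WT.

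Of 17 MHC class II genes 13 were tested, with a median log2 difference of -0.27, 1 whose Smc3-cKO libraries both lay above and 4 below. Cd74, the invariant chain, was at 6215 and 7627 CPM in Smc3-cKO and 8704 and 7972 CPM in Smc3-WT, and H2-Aa at 3037 and 4473 against 3293 and 5321 CPM. H2-Oa, a subunit of the inhibitor of peptide loading, was at 81.6 and 67.0 CPM in Smc3-cKO and 85.5 and 219 CPM in Smc3-WT (log2 difference -1.21, SE 0.50, edgeR adjusted p = 0.805). Of 16 MHC class I genes 13 were tested and 0 had an unadjusted p under 0.05, with a median of 0.18. B2m was at 1778 and 1176 CPM in Smc3-cKO and 663 and 1262 CPM in Smc3-WT.

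Costimulation and checkpoint genes numbered 18, of which 9 were tested, with 3 lower at an unadjusted p under 0.05 and a median log2 difference of -0.62. Cd274, the checkpoint ligand PD-L1, was at 34.98 and 62.1 CPM in Smc3-cKO and 128 and 174 CPM in Smc3-WT (log2 difference -1.58, SE 0.48, edgeR adjusted p = 0.771). Cd80, a ligand of CD28, was at 70.0 and 69.5 CPM in Smc3-cKO and 192 and 155 CPM in Smc3-WT (log2 difference -1.27, SE 0.43, edgeR adjusted p = 0.771). Neither overlapped between genotypes. Havcr2, which encodes TIM-3, was at 58.3 and 81.9 CPM in Smc3-cKO and 42.8 and 293 CPM in Smc3-WT, with overlap, and without Smc3-WT replicate 2 its log2 difference was 0.85.

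Of 18 chemokine and positioning receptors 3 were tested, with 2 whose Smc3-cKO libraries both lay above, and Ccr2, the receptor for monocyte chemoattractants, was at 822 and 794 CPM in Smc3-cKO and 642 and 219 CPM in Smc3-WT (log2 difference 0.97, SE 0.56, edgeR adjusted p = 0.891). Of 27 cytokines and chemokines 6 were tested and 10 had no UMI in any of the cells, Il6, Il10 and Il12b among them. Ccl5 was at 0 and 14.9 CPM in Smc3-cKO and 64.2 and 165 CPM in Smc3-WT (log2 difference -3.58, SE 0.89, edgeR adjusted p = 0.478). Ccl6 was at 344 and 246 CPM in Smc3-cKO and 85.5 and 146 CPM in Smc3-WT (log2 difference 1.24, SE 0.46, edgeR adjusted p = 0.771). Cxcl9 had 83 UMIs in Smc3-cKO, 75 of them in 1 cell, and 0 in Smc3-WT.

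Of 27 integrin and adhesion genes 18 were tested, with Dscam called, 5 lower and 1 higher at an unadjusted p under 0.05, 7 whose Smc3-cKO libraries both lay below and 2 above, and a median log2 difference of -0.15. Adam22, a relative of Adam23, was at 17.5 and 22.3 CPM in Smc3-cKO and 171 and 155 CPM in Smc3-WT (log2 difference -2.92, SE 0.54, edgeR adjusted p = 0.122). Itgax, which encodes CD11c, was at 169 and 174 CPM in Smc3-cKO and 449 and 302 CPM in Smc3-WT. Of 31 C-type lectin receptors 9 were tested, with 2 above, 2 below and a median of 0.21, and Clec12a, an inhibitory receptor for uric acid crystals, was at 117 and 119 CPM in Smc3-cKO and 0 and 54.9 CPM in Smc3-WT (log2 difference 1.64, SE 0.69, edgeR adjusted p = 0.810). Of 25 Fc and phagocytic receptors 8 were tested and of 29 pattern recognition receptors 8, with 0 in either list at an unadjusted p under 0.05 and medians of 0.00071 and -0.34.

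Response programs held no called gene. Of 23 immediate early genes 9 were tested, with 8 whose Smc3-cKO libraries both lay above, 4 higher at an unadjusted p under 0.05 and a median log2 difference of 1.09. Nfkbia, the inhibitor of NF-kappa-B, was at 222 and 208 CPM in Smc3-cKO and 0 and 91.4 CPM in Smc3-WT (log2 difference 1.82, SE 0.67, edgeR adjusted p = 0.771), and Zfp36, which degrades cytokine mRNAs, at 128 and 134 against 42.8 and 45.7 CPM (1.54, SE 0.52, edgeR adjusted p = 0.771). Of 36 type I interferon-stimulated genes 11 were tested, with 7 above, 2 higher at an unadjusted p under 0.05 and a median of 0.92, and Ifi204, a sensor of DNA, was at 163 and 86.9 CPM in Smc3-cKO and 0 and 27.4 CPM in Smc3-WT (2.60, SE 0.84, edgeR adjusted p = 0.771). Of 29 cholesterol genes 7 were tested, with 3 above, 1 below and a median of 0.51. Of 30 replication and mitosis genes 5 and of 20 maturation genes 6 were tested, with 0 at an unadjusted p under 0.05 and medians of 0.71 and -0.12.

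A pair of lists came from an earlier analysis of the same libraries and is no independent evidence. Of 22 genes lower in Smc3-cKO cDC there, 9 were tested, all 9 had both Smc3-cKO libraries below, 8 at an unadjusted p under 0.05, and together they reached 450 and 555 unscaled CPM in Smc3-cKO and 3096 and 3744 CPM in Smc3-WT. Of 9 genes higher there, 6 were tested, 4 with both Smc3-cKO libraries above, and together they reached 1367 and 1401 unscaled CPM in Smc3-cKO against 419 and 333 in Smc3-WT. Xdh, xanthine dehydrogenase, was at 326 and 149 CPM in Smc3-cKO and 85.5 and 45.7 CPM in Smc3-WT (log2 difference 1.94, SE 0.62, edgeR adjusted p = 0.771).

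Markers of other cell types are given next, with no called gene in any of their lists. Their part in the gene differences was not tested. Of 12 classical monocyte genes 6 were tested, with 4 whose Smc3-cKO libraries both lay above and 3 higher at an unadjusted p under 0.05, and its total was 2421 and 1499 unscaled CPM in Smc3-cKO and 861 and 640 CPM in Smc3-WT. F13a1, a coagulation factor of monocytes, was at 525 and 174 CPM in Smc3-cKO and 21.4 and 128 CPM in Smc3-WT (log2 difference 1.92, SE 0.73, edgeR adjusted p = 0.805). Of 16 B cell genes 5 were tested, with 2 lower at an unadjusted p under 0.05, and its total was 655 and 495 unscaled CPM in Smc3-cKO and 1280 and 1202 CPM in Smc3-WT. Bank1, a B cell adaptor, was at 23.3 and 84.4 CPM in Smc3-cKO and 128 and 283 CPM in Smc3-WT (log2 difference -1.87, SE 0.59, edgeR adjusted p = 0.771). In Smc3-WT, 33 Bank1 UMIs lay in the 15 cells with Adam23, Dscam or Frmd5 described below, and 4 in the 12 cells of no group. Ighm, a more abundant member, overlapped between genotypes, at 239 and 170 unscaled CPM in Smc3-cKO and 186 and 222 in Smc3-WT.

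The totals of the other marker lists, also in unscaled CPM, overlapped between genotypes. T and NK cell genes summed to 142 and 245 CPM in Smc3-cKO and 2421 and 111 CPM in Smc3-WT, with all 15 Klra8 UMIs of Smc3-WT replicate 1 in 1 cell, while Cd3g was at 0 in every library. Erythroid genes summed to 1407 and 20.01 CPM in Smc3-cKO and 2538 and 68.2 CPM in Smc3-WT, high in replicate 1 of each genotype, where Hbb-bs was found in 26 of 28 and 9 of 9 cells. Macrophage genes summed to 222 and 285 CPM in Smc3-cKO and 629 and 188 CPM in Smc3-WT, and nonclassical monocyte genes to 900 and 648 against 978 and 563 CPM. The cDC1 list, with Xcr1 and Clec9a at 0 by the rule, summed to 968 and 1251 CPM in Smc3-cKO and 1001 and 1399 CPM in Smc3-WT, neutrophil and basophil genes to 85.4 and 70.1 against 140 and 51.2 CPM, and plasma cell genes to 211 and 153 against 186 and 119 CPM.

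The Cd209a cells were not uniform, and 3 groups of genes split them. These groups were drawn after seeing the data, so they get no test. Cells with at least 4 UMIs of the monocyte genes Lyz2, F13a1 and Fn1 together were 12 of 28 and 20 of 70 in Smc3-cKO and 1 of 9 and 4 of 23 in Smc3-WT. Cells with at least 2 Cyp7b1 UMIs were 3 and 8 in Smc3-cKO and 0 and 0 in Smc3-WT, where counts of 0 allow shares of up to 33.6% and 14.8% (upper 95% exact bounds). Cells with at least 3 UMIs of Adam23, Dscam and Frmd5 together were 2 and 4 in Smc3-cKO and 3 and 12 in Smc3-WT. In Smc3-cKO 2 and 3 cells fell in both the Cyp7b1 group and the Adam23, Dscam and Frmd5 group, against 0 and 0 in Smc3-WT. The cells of this last group differed by genotype in other genes, as given below, so its shares do not count 1 kind of cell. The remaining 13 and 41 cells of Smc3-cKO and 5 and 7 of Smc3-WT belonged to none of these groups.

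**Figure D4:**
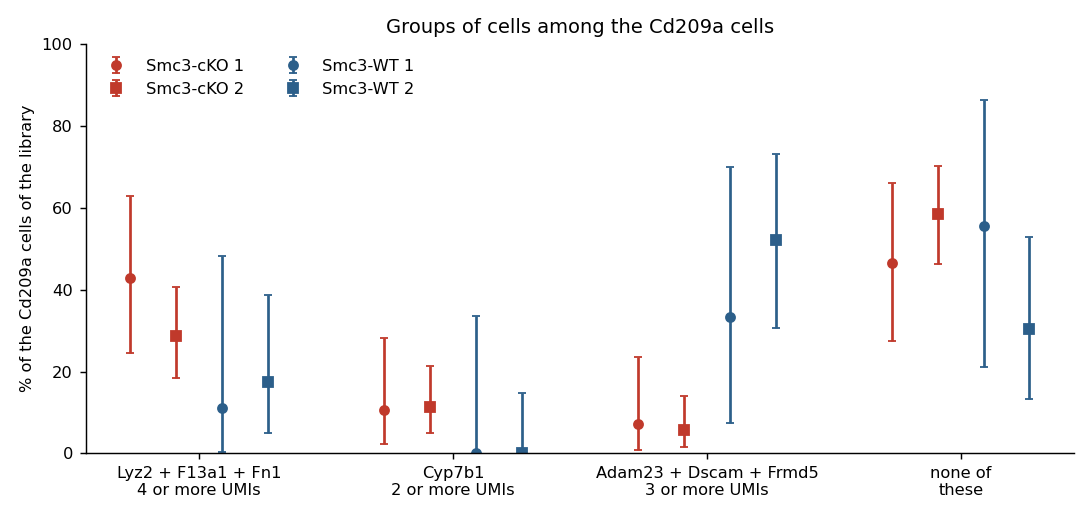
Percentage of the Cd209a cells of each library (y axis) that fall in 3 groups of cells, which can overlap, or in none of them (x axis). Points are libraries and bars are 95% exact binomial intervals. The Adam23, Dscam and Frmd5 group is 7.14% and 5.71% in Smc3-cKO against 33.3% and 52.2% in Smc3-WT, and its cells differ in other genes between genotypes.

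The following levels are unscaled CPM over the cells of a group, pooled over both libraries of a genotype, and describe groups chosen on these cells. In the 32 Smc3-cKO cells with monocyte genes, Lyz2 was at 4522 CPM, Ccr2 at 1339, the large scaffold gene Ahnak at 1652 and Klra2 at 313 CPM, while Flt3 was at 266 and Zbtb46 at 90.3 CPM. The 5 Smc3-WT cells of this group had 3794 CPM of Lyz2, 1412 of Ccr2 and 1632 of Ahnak. Cd209a was at 1174 CPM in this group in Smc3-cKO and 706 CPM in Smc3-WT, and Dscam, Adam23 and Frmd5 were at 0 in both.

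In the 11 Cyp7b1 cells of Smc3-cKO, Tcf4 was at 3189 CPM, Runx2, a factor that pDC use, at 1171, Flt3 at 681, the inhibitory receptor gene Cd200r1 at 753, the synaptic scaffold gene Dlg2 at 729 and Cd209d at 358 CPM. Lyz2 was at 35.8 CPM and Ahnak at 0 in these cells, and Siglech at 71.7 CPM. Tcf4 was at 329 CPM in the monocyte-gene group and 487 CPM in the cells of no group of the same libraries. A single cell held 70 of the 142 Tcf4 UMIs of Smc3-cKO replicate 1, and another 62 of the 333 of replicate 2.

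Of the 6 Smc3-cKO cells with Adam23, Dscam or Frmd5, 5 were also among the 11 Cyp7b1 cells above. The 6 cells had 2393 CPM of Cyp7b1, 2810 of Tcf4, 187 of Adgrl3, 187 of Rtn1 and 146 of Dscam. The 15 Smc3-WT cells of this group had 0 CPM of Cyp7b1, 365 of Tcf4 and 901 of Dscam. In these Smc3-WT cells, the adhesion receptor gene Adgrl3 was at 4322 CPM, the lectin-like receptor Klri1 at 684, Itgax at 468, Rtn1 at 935 and Cd209a at 445 CPM. The 54 Smc3-cKO cells of no group had 785 CPM of Adgrl3, 1191 of Cd209a, 267 of Clec10a and 308 of Plcb4. The 12 Smc3-WT cells of no group had 1625 CPM of Adgrl3, 923 of Cd209a, 120 of Clec10a and 40.1 of Plcb4. Cd74 lay between 5473 and 8925 CPM in all groups of both genotypes.

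Compared with Cd209a-negative cells of the same libraries, in unscaled CPM, Ccr2 was higher in the Cd209a cells of all 4 libraries. Ccr2 was at 803 and 801 CPM in Smc3-cKO and 698 and 205 CPM in Smc3-WT, while the added comparison gate had 94.2 and 148 CPM in Smc3-cKO and 121 and 25.1 CPM in Smc3-WT. Tcf4 was at 809 and 833 CPM in Smc3-cKO and 256 and 367 CPM in Smc3-WT, while the added gate had 273 and 274 CPM in Smc3-cKO and 234 and 193 CPM in Smc3-WT. In Smc3-WT replicate 1 this gap was less than 1 UMI of the Cd209a cells is worth. Tcf4 was not particular to the Cd209a cells, since B cell-gated cells had 515 and 594 CPM in Smc3-cKO and 495 and 512 CPM in Smc3-WT. In cDC1-gated cells Tcf4 was at 274 and 2007 CPM in Smc3-cKO and 63.9 and 609 CPM in Smc3-WT. That gate sets no limit on Cd209a, which was at 24.9 and 404 against 0 and 109 CPM in it. Dscam was lower in the Cd209a cells of all 4 libraries, at 17.1 and 12.5 CPM in Smc3-cKO and 442 and 520 CPM in Smc3-WT, while the added gate had 226 and 310 CPM in Smc3-cKO and 2460 and 1938 CPM in Smc3-WT. Dscam thus had its lower values in Smc3-cKO in both kinds of cells. These levels are descriptions, since Cd209a UMIs separate the gates, and since the comparison gates limit Ly6c2 and other monocyte and macrophage genes while the rule for Cd209a cells does not. Ccr2 was highest in the Cd209a cells with monocyte genes, a kind of cell that these limits bear on.

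Among genes of at least 50 CPM, the ratio over the Cd209a-negative gate with 5 CPM added to both was led, after Cd209a itself, by Mgl2, Cyp7b1, Ly6c2, Cacnb2 and Cd209c. Mgl2 and Cyp7b1 were higher in 2 libraries each, Ly6c2 in 3 and Cacnb2 and Cd209c in 4. The place of Ly6c2 is set by the gate, which allows at most 1 Ly6c2 UMI in a cell. Cacnb2, a calcium channel subunit, was at 142 and 313 CPM in Smc3-cKO and 186 and 42.6 CPM in Smc3-WT, while the Cd209a-negative gate had 0 and 0 CPM in Smc3-cKO and 0 and 12.004 CPM in Smc3-WT. Plxdc2, a transmembrane protein gene, was at 142 and 150 CPM in Smc3-cKO and 233 and 102 CPM in Smc3-WT, while that gate had 23.3 and 0 CPM in Smc3-cKO and 15.5 and 6.00 CPM in Smc3-WT. The other side was led by erythroid and cycling genes of Smc3-WT replicate 1 of the Cd209a-negative gate, such as Sox6 at 1240 CPM and Mki67 at 1209 CPM, so that gate was not pure in this library. The added gate was not pure either. It had Car1 at 1668 CPM in Smc3-cKO replicate 1, and Sox6 at 370 and Slc4a1 at 253 CPM in Smc3-WT replicate 1.

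The difference in the genotype effect between Cd209a cells and Cd209a-negative cells was tested as an interaction, blocked by library. Within the Cd209a-negative gate itself, 4 of 1550 genes (0.258%) were called between genotypes by edgeR: Plcb4 rose (log2 difference 3.23, SE 0.61, adjusted p = 0.0440), and Frmd5 (-2.68, SE 0.54, 0.0473), 9530059O14Rik (-3.62, SE 0.72, 0.0473) and Lyz2 (-4.43, SE 0.74, 0.0225) fell in Smc3-cKO. In that gate Lyz2 was at 23.3 and 13.6 unscaled CPM in Smc3-cKO and 388 and 366 in Smc3-WT. There Lyz2 passed the filter on low counts only through Smc3-WT and Plcb4 only through Smc3-cKO, and Smc3-WT replicate 1 was not pure. Lyz2 overlapped in the added gate, at 37.7 and 485 unscaled CPM in Smc3-cKO and 394 and 316 in Smc3-WT (log2 difference -0.33, SE 0.69, edgeR adjusted p = 0.992). Within the added gate edgeR called 0 of 4793, where 261 had an unadjusted p under 0.05. For the interaction against the Cd209a-negative gate, 0 of 2860 genes (0%) passed edgeR's quasi-likelihood test, 82 were at an unadjusted p below 0.05, and 1 was called by DESeq2. Against the added gate, 4 of 5036 genes (0.0794%) passed, and DESeq2 called 0. Arhgap6 was at 82.4 and 111 CPM in Smc3-cKO and 622 and 835 CPM in Smc3-WT Cd209a cells, while the comparison cells had 511 and 857 CPM in Smc3-cKO and 794 and 956 CPM in Smc3-WT (interaction -2.57 on the log2 scale, SE 0.43, edgeR adjusted p = 0.0125). Mreg, Ccl5 and Ccser1 were the others, all with a lower interaction in Cd209a cells. The calls depended on single libraries: left out in turn, the adjusted p of these genes lay between 2.47e-05 and 0.760.

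**Figure D5:**
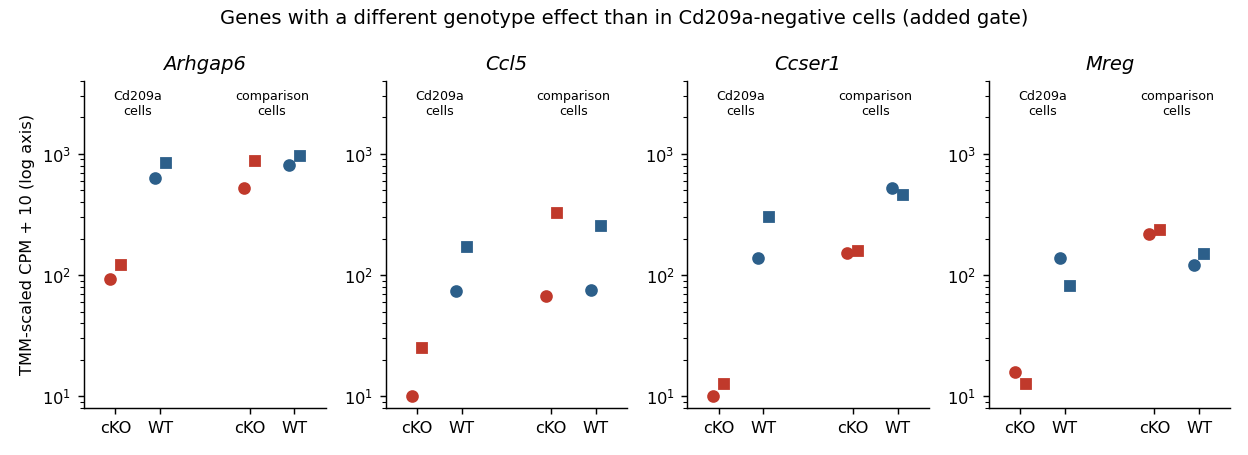
TMM-scaled CPM plus 10 (y axis, log scale) of the 4 genes whose genotype effect differed between Cd209a cells and the added comparison cells, in Smc3-cKO (red) and Smc3-WT (blue), with 1 point per library (circle for replicate 1, square for replicate 2). Arhgap6 is at 82.4 and 111 CPM in Smc3-cKO against 622 and 835 CPM in Smc3-WT Cd209a cells, and the comparison cells lie between 511 and 956 CPM.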

How the data were processed

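The authors deposited raw UMI counts for 32285 genes, made with Cell Ranger 7.0.0 per the file headers. Per the submitters' processing notes the build was mm10. The lowest total per barcode was 500 or 501.

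Raw counts of the cells that met the rule were summed per library and compared with edgeR 4.0.16 (limma 3.58.1, R 4.3.3): filterByExpr, TMM, quasi-likelihood F test, Benjamini-Hochberg adjustment over all genes tested, threshold 0.05. A gene could pass filterByExpr through the libraries of 1 genotype alone. The genes used by the rule and mitochondrial genes stayed in library sizes and were not tested. CPM are TMM-scaled unless called unscaled, and list sums are unscaled. Log2 differences are Smc3-cKO over Smc3-WT. SE comes from the F statistic. DESeq2 1.42.0 was an alternative, and Scrublet (scanpy 1.11.5) called doublets, which stayed in. Counts of Cd209a, its homologues and the Klra genes are uncertain, since reads of near copies can be split.

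Genes were named by rule: past the threshold, libraries not overlapping, at least 50 CPM in the higher genotype, up to 15 per direction by fold, and where fewer than 8 qualified the smallest unadjusted p up to 8. Some of the members of largest fold and highest level in the lists are named, not all of them. Other members were chosen after their values were seen. A few genes that the rule picks are not reported here. The members and lists were chosen with earlier results of these data known. Of 588 listed genes, 583 matched RefSeq coordinates. The scripts were tested on simulated data.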

Additional observations from a re-analysis of the deposited data

Results flagged for a closer look

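The genotype effect differed between Cd209a cells and Cd209a-negative cells of the added comparison gate in 4 genes, by the interaction test of edgeR. For Arhgap6 the interaction was -2.57 (SE 0.43, adjusted p = 0.0125), with a genotype difference of -2.94 (SE 0.41) in Cd209a cells and -0.34 (SE 0.41) in comparison cells. For Mreg, a membrane trafficking gene, it was -5.24 (SE 0.88, adjusted p = 0.0125), with 5.89 and 2.52 CPM in Smc3-cKO and 129 and 71.0 CPM in Smc3-WT Cd209a cells, against 208 and 228 CPM and 112 and 139 CPM in comparison cells. Mreg was too low to be tested between genotypes in the Cd209a cells alone, where Smc3-cKO held 1 and 1 UMIs and Smc3-WT 6 and 8, and it entered the interaction test through the comparison cells. For Ccl5 it was -3.94 (SE 0.73, adjusted p = 0.0324), with 0 and 15.1 CPM in Smc3-cKO and 64.3 and 160 CPM in Smc3-WT Cd209a cells, against 56.8 and 312 CPM and 65.5 and 244 CPM. For Ccser1 it was -4.90 (SE 0.93, adjusted p = 0.0324), with a genotype difference of -1.72 (SE 0.32) in comparison cells. With the Cd209a-negative gate the adjusted p by edgeR was 0.101 for Arhgap6, 0.148 for Mreg and 0.998 for Ccl5 and Ccser1. The added gate was drawn after seeing the data.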

How the results depend on the processing

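The count of genes called between genotypes in Cd209a cells, 2 by edgeR, moved with nearly every choice. It was 9 by DESeq2, 5 with RLE scaling, 39 with no filter on low counts, 1 with equal numbers of cells, 4 with at least 3 Cd209a UMIs, 27 with at least 1, 11 without the limit on Siglech, 5 with at most 5% mitochondrial UMIs, 5 without the limit on Xcr1 and Clec9a, 5 without Scrublet doublets and 0 without cells with 4 or more UMIs of Lyz2, F13a1 and Fn1. At 0 calls there, 104 genes had an unadjusted p under 0.05. With 1 library left out in turn it lay between 0 (without Smc3-cKO replicate 2) and 284 (without Smc3-WT replicate 2). A replicate block gave 8, with Cyp7b1 (edgeR adjusted p = 0.00726), Adam23 (0.00807), Arhgap6 (0.00975), 9530059O14Rik (0.00548), Frmd5 (0.00513) and Cacna1e (0.00726) among those that passed. The labels do not say what a replicate number stands for. Deviations of same-numbered libraries correlated at 0.03 over all genes tested, although both replicate 1 libraries had more erythroid RNA and a higher mitochondrial share.

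The interaction count, 0 by edgeR, was 1 by DESeq2, 3 with no filter, 2 with at least 3 Cd209a UMIs, 5 with at least 1, 6 without the limit on Siglech, 12 with no B or T cell gene detected and 0 to 94 with 1 library left out (94 without Smc3-WT replicate 2). The added comparison gate gave 4, and 8 to 20 with 1 library left out (8, 12, 13 and 20). The shares kept their direction under all alternatives, with the difference in share of kept cells between 0.195 and 0.470 percentage points. Of single genes named with a test, 3 changed sign: Irf8 (-1.16) and Tcf4 (-0.35) without the limit on Siglech, and Havcr2 (0.85) without Smc3-WT replicate 2, against -1.98 without Smc3-WT replicate 1. The causes were not tested. Alternatives on Lyz2, Xcr1 and Clec9a and the added gate were chosen after seeing the data. The 9 cells and 42952 UMIs of Smc3-WT replicate 1 limit every comparison.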

Other observations

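Cd209a cells that were left out only for Xcr1 or Clec9a, 11 and 27 in Smc3-cKO and 3 and 10 in Smc3-WT, are described in unscaled CPM. Tcf4 was at 1134 and 2700 in these Smc3-cKO cells and at 2322 and 774 in these Smc3-WT cells, and Runx2 at 1031 and 1432 against 1498 and 467. The pDC marker Siglech was at 38.7 and 76.5 CPM in Smc3-cKO and 0 and 32.2 CPM in Smc3-WT, while pDC-gated cells had 3128 and 2929 against 3932 and 2836 CPM. The gates set this gap, since the pDC gate asks for more Siglech UMIs than these cells were allowed. Clec9a was at 232 and 339 CPM in Smc3-cKO and 225 and 435 CPM in Smc3-WT, while cDC1-gated cells of the same libraries had 728 and 564 against 860 and 705 CPM. The cDC1 gate asks for more Xcr1 and Clec9a UMIs than these cells needed, and a cell can be in both groups. Cadm1 and Tlr3, which mark cDC1, were at 0 to 16.1 CPM. Plcb4 was at 309 and 361 CPM in Smc3-cKO and 225 and 64.5 CPM in Smc3-WT.

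Plcb4 was also higher in both Smc3-cKO libraries in cells gated as lymphocytes: B cell-gated cells had 91.5 and 54.6 unscaled CPM in Smc3-cKO and 3.73 and 1.86 CPM in Smc3-WT, and T cell-gated cells 103 and 122 against 41.9 and 26.5 CPM.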
